A study of Mus musculus with 20 samples.

Results

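The collagen family was taken as every gene whose symbol has the form Col, a number, the letter a and a number. This gave 44 genes, all of them listed both among the 19722 identifiers measured at 4 h and among the 51912 measured at 24 h. Of these, 11 code for fibrillar chains, 6 for the type IV chains of basement membranes and 27 for other types: 9 fibril-associated, 6 of the beaded filaments of type VI, 3 of short-chain networks, 4 transmembrane, 2 multiplexins and 3 that stand apart (Col7a1, Col26a1 and Col28a1).

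RNA was sequenced from 20 cultures of forebrain slices, cut from mouse pups at postnatal day 4 and kept in DMEM with 5% horse serum. At 4 h there were 3 libraries labelled knockout (KO), where Tnfaip6, which codes for TSG-6, a protein that binds hyaluronan, is the targeted gene, and 3 wild-type (WT) libraries. At 24 h there were 4 KO female, 3 heterozygous (Het) female, 4 KO male and 3 Het male libraries, so at 24 h KO is set against slices that carry the altered allele too; the titles and genotype fields say heterozygous, while the treatment text of the same libraries speaks of WT. The labels used here give no strain, and no sex at 4 h. All groups received serum, slices without it were not analysed here, and the labels do not tie libraries to separate pups. The spread behind each p-value is that among libraries and may be partly technical.

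Collagens are built from chains wound into a triple helix. The fibrillar types, led in most connective tissue by types I and III, form the fibrils of the meninges and of the outer coat of larger vessels. Type IV chains assemble into the sheet-like network of basement membranes, which in the brain lies under the endothelium, around pericytes and beneath the pia. The remaining types decorate fibrils, form beaded filaments or short networks, or stay anchored in the cell membrane, some of them on neurons. Brain parenchyma itself holds little fibrillar collagen.

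The 6 type IV genes lie head to head in pairs on opposite strands. The annotated starts were 21 bases apart for Col4a1 and Col4a2, 72 for Col4a3 and Col4a4, and 1309 for Col4a5 and Col4a6 (GENCODE, GRCm38). Col4a1 and Col4a2 were the most abundant members, and their ratio was nearly fixed at 4 h and ranged more widely at 24 h. Their promoter windows, 250 bases before to 50 after each start in RefSeq on GRCm38.p6, are shown. Each is read 5′ to 3′ on its own strand, and the capitals mark the 78 bases that both windows share. The Col4a1 window is chr8:11312777-11313076 on the minus strand and the Col4a2 window is chr8:11312555-11312854 on the plus strand.
Col4a1: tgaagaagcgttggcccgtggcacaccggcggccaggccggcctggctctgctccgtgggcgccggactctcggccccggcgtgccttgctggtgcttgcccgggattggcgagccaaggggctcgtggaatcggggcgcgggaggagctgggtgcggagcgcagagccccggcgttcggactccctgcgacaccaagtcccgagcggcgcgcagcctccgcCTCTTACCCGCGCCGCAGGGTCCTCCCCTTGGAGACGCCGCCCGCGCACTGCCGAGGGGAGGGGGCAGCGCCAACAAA
Col4a2: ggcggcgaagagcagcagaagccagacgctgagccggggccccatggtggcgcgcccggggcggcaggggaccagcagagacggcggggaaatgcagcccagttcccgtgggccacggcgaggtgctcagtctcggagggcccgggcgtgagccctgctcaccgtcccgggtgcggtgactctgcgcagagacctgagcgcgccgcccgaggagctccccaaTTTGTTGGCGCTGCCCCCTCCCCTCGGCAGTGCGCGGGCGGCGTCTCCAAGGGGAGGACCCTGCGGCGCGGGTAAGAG
The window of Col1a2, a type I chain compared with meningeal markers in these libraries, is chr6:4505368-4505667 on the plus strand. Its capitals mark the letters CCAAT and GGGCGG on either strand.
Col1a2: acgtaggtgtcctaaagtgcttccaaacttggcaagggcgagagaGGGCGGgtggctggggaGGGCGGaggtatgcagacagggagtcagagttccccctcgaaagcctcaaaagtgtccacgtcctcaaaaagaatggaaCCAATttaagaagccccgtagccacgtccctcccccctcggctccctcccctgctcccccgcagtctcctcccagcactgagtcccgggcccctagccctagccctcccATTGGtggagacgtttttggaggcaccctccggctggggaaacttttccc
In the Col1a2 window the CCAAT letters begin at offsets -109 and 0 and the GGGCGG letters at offsets -205 and -188, where offset 0 is the start base. RefSeq windows were found for 35 of the 44 members, 38 windows in all, and 9 members had none. The letters TATAA were present on either strand in 7 of the 38 member windows and in 24.9% of all 32851 windows, CCAAT in 13 and in 37.4%, and GGGCGG in 23 and in 35.7%. The 3 sets of letters were searched separately, matches may overlap, and a match describes the letters only.

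Library totals were 11411532 to 15030171 reads at 4 h and 8482933 to 18051300 reads at 24 h. The deleted gene itself did not check the KO label. Tnfaip6 had 40.6, 73.2 and 83.3 normalised reads (reads divided by the library's size factor) in the KO libraries at 4 h, against 67.2, 92.6 and 84.4 in the WT libraries, and 5.14 to 8.09 CPM (counts scaled to library size) in the KO libraries at 24 h, against 3.43 to 6.42 CPM in the Het libraries. The deleted part is not given in the sources used here, so every direction below rests on the labels. At 4 h, KO 1 and WT 1 carried Xist (2584 and 4999 normalised reads) and the other 4 libraries carried Y-linked transcripts. At 24 h, KO female 2 had no Xist read and had Ddx3y at 77.1 CPM, against its label. KO female 1, KO female 3 and KO male 3 held Ttr, the transthyretin gene of choroid plexus epithelium, at 1472, 2706 and 456 CPM, whereas no other library exceeded 0.778 CPM.

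Type IV collagen led the family at both times. On the scale of RPKM (library-scaled reads per kilobase of merged exon), Col4a1 had a level of 38.0 ± 4.36 over the 6 libraries at 4 h and 46.3 ± 4.61 over the 14 libraries at 24 h (SD). Col4a2, the partner chain in the heterotrimer, had 27.3 ± 3.21 and 31.8 ± 2.76 RPKM at these times. The lowest Col4a1 value at each time (32.7 and 40.1 RPKM) lay above the highest Col4a2 value (31.3 and 38.5 RPKM), and on this scale no other member reached the lowest Col4a2 value. On longest transcripts Col4a1 and Col4a2 kept the highest means, but single libraries of Col9a3 at 4 h (up to 29.2 RPKM) and of Col3a1 at 24 h (up to 32.2 RPKM) lay above the lowest Col4a2 values (24.1 and 29 RPKM). The tables of 4 h and 24 h were made separately and differ in their control genotype, so no test was run across them.

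Below type IV, the order differed between the times. At 4 h Col9a3, a chain of the fibril-associated type IX, stood at 17.5 ± 3.41 RPKM and Col6a1, a type VI chain, at 13.1 ± 3.66 RPKM, and their ranges over libraries overlapped. The fibrillar genes Col1a1 (8.74 ± 1.85), Col3a1 (6.79 ± 1.71) and Col1a2 (6.74 ± 1.36 RPKM) came next and could not be separated from Col9a2 (6.39 ± 0.936) or Col16a1 (6.04 ± 1.05 RPKM). At 24 h Col6a1 (18.2 ± 3.05), Col1a1 (14.4 ± 3.04), Col3a1 (13.4 ± 3.03), Col18a1 (12.1 ± 1.87), Col9a3 (11.6 ± 2.78) and Col1a2 (8.97 ± 1.81 RPKM) had overlapping ranges. This order turns on the length used: with the longest transcript in place of merged exons, Col3a1 had 23.7 and Col1a2 20.8 RPKM at 24 h, above Col6a1 at 19.4 RPKM, and Col26a1 had 12.9 RPKM, against 4.39 RPKM on merged exons. Col18a1 codes for the multiplexin that yields endostatin and is a component of vascular basement membranes. Col6a2, the type VI partner of Col6a1, was lower, at 3.06 ± 0.381 RPKM at 4 h and 4.72 ± 0.979 RPKM at 24 h.

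On GRCm38, Col4a1 lies at chr8:11198423-11312826 on the minus strand and Col4a2 at chr8:11312805-11449287 on the plus strand. Col1a1 lies at chr11:94936224-94953042, Col1a2 at chr6:4504814-4541544, Col3a1 at chr1:45311538-45349706, Col8a2 at chr4:126286793-126314330 and Col9a3 at chr2:180597790-180622189, all on the plus strand, and Col6a1 at chr10:76708792-76726168 on the minus strand.

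Col6a6, Col17a1 and Col4a3 had the 3 lowest means at 4 h, and with Col28a1 the 4 lowest at 24 h. Col6a6 had 0.0483 ± 0.0189 RPKM at 4 h and 0.0586 ± 0.0257 RPKM at 24 h, and Col17a1, the hemidesmosome collagen of epithelia, had 0.108 ± 0.0433 and 0.0996 ± 0.0413 RPKM. Within type IV the spread was wide: Col4a3 had 0.106 ± 0.0612 RPKM at 4 h and 0.144 ± 0.0438 RPKM at 24 h, and Col4a4 had 0.400 ± 0.0369 and 0.473 ± 0.0863 RPKM. The Col4a3 and Col4a4 chains join Col4a5 in the membrane of the kidney glomerulus. Col4a5, at 4.43 ± 0.447 and 7.53 ± 0.746 RPKM, and Col4a6, at 1.00 ± 0.158 and 2.30 ± 0.271 RPKM, lay between these and the abundant pair.

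**Figure D1:**
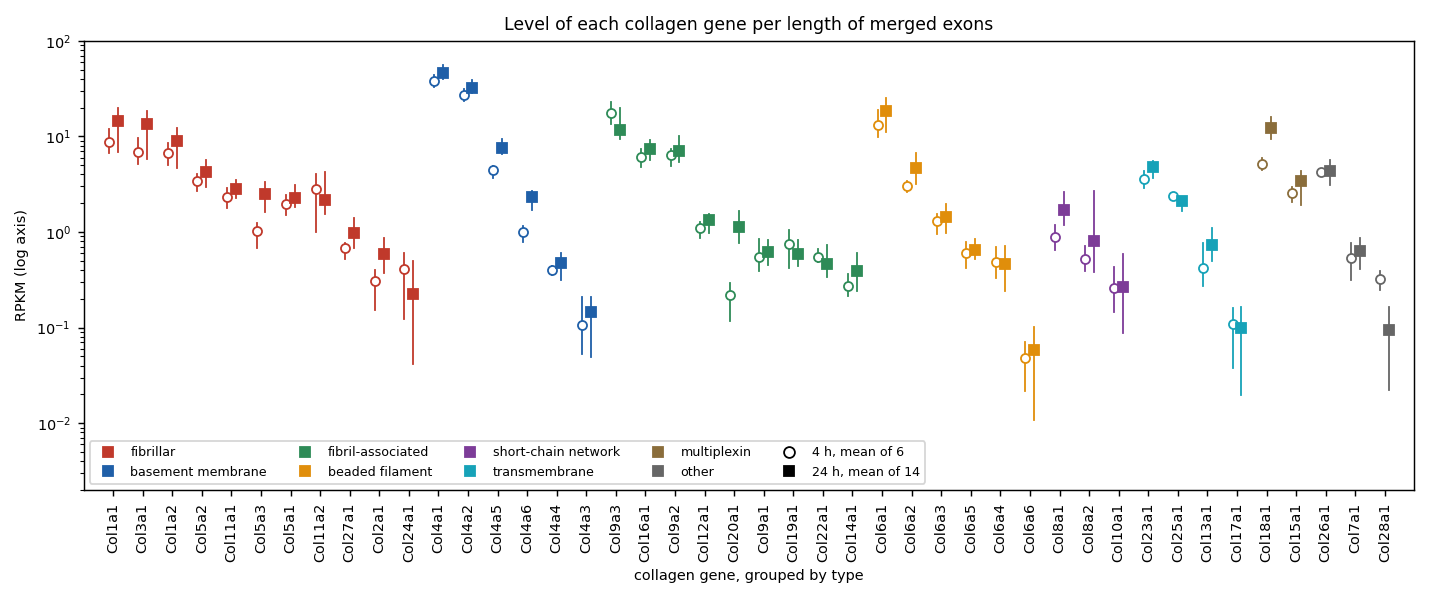
Mean level of each of the 44 collagen genes on a log axis of RPKM, grouped by type; open circles are 4 h (6 libraries), filled squares 24 h (14 libraries), and lines span the lowest to the highest library. Col4a1 and Col4a2 stand above all others at both times, at 38.0 and 27.3 RPKM at 4 h and 46.3 and 31.8 RPKM at 24 h.

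Of the family's summed RPKM, type IV took 39.8% ± 1.37, fibrillar genes 19.6% ± 1.79 and all other types 40.7% ± 1.51 at 4 h (SD over 6 libraries). At 24 h the shares were 38.8% ± 1.28, 22.9% ± 2.22 and 38.3% ± 2.10 (SD over 14 libraries). With the longest annotated transcript as the length, type IV took 33.8% at 4 h and 32.9% at 24 h, and fibrillar genes took 23.8% and 27.8%. In that case the other types took 42.4% at 4 h and 39.3% at 24 h. By genotype the type IV share was 39.9% ± 0.678 in KO libraries and 39.6% ± 2.04 in WT libraries at 4 h, and the fibrillar share 19.1% ± 2.28 in KO libraries and 20% ± 1.48 in WT libraries, differences smaller than the spread within groups. At 24 h the fibrillar share was 24% ± 0.655 in KO males (23.5% to 25%) and 21.7% ± 0.685 in Het males (21.1% to 22.4%). In females the means went the opposite way, with 22.1% ± 4.01 in KO and 23.6% ± 0.462 in Het libraries. The lower KO mean came from KO female 3 alone, at 16.1%. The other KO females had 23.5% to 24.6% and the Het females 23.1% to 24%. The 24 h type IV share was 38.7% ± 1.05 in KO and 39.4% ± 2.51 in Het males. It was 38.7% ± 1.02 in KO and 38.4% ± 0.601 in Het females. Shares were not tested. All members together held 0.110% to 0.123% of reads in the KO libraries at 4 h, against 0.120% to 0.147% in the WT libraries.

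At 4 h no collagen gene passed the test between KO and WT, while the fold changes of the family leaned to the negative side. Of the 42 members with enough signal to be tested (all except Col6a6 and Col17a1), 0 passed an adjusted p of 0.05 with limma, 10 had an unadjusted p under 0.05 (2110 of all 15181 genes did), and edgeR and DESeq2 on the recovered reads called 0 members as well. Over all 15181 genes tested, limma called 7, which is 0.0461%. On the recovered reads edgeR called 2 genes higher and 5 lower of 15256, and DESeq2 107 higher and 54 lower of 19721. The log2 fold change, KO minus WT, was negative for 33 of the 42 members, with a median of -0.20, against 49.4% negative over all genes. It was negative for all 11 fibrillar genes (median -0.29), all 6 type IV genes (median -0.20) and 16 of the 25 other members tested (median -0.12). Without WT 1 it was negative for 32 of 42 members with a median of -0.10, and without WT 1 and KO 1 for 33 of 41 with a median of -0.15. Without KO 2 it was negative for 29 of 42 with a median of -0.15, among them 9 of 11 fibrillar genes. In each of these 3 cases 5 of the 6 type IV genes were negative. With the same-numbered libraries as pairs, 11 genes were called higher and 27 lower over the whole table, again with 0 members among them.

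Among the fibrillar genes, Col1a1 had 655, 825 and 574 normalised reads in the KO libraries, against 1000, 663 and 748 in the WT libraries. Col1a2 had 874, 1250 and 813 in the KO libraries, against 1367, 1083 and 1133 in the WT libraries. Col3a1, the type III chain, had 679, 992 and 664 in the KO libraries, against 1196, 728 and 920 in the WT libraries. For all 3 genes WT 1 was the highest library and KO 2 stood above the other KO libraries and above WT 2 and WT 3. The log2 fold changes were -0.23 ± 0.15 for Col1a1, -0.30 ± 0.14 for Col1a2 and -0.28 ± 0.17 for Col3a1 (limma, SE, n = 3 each; adjusted p = 0.517, 0.335 and 0.483).

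These type I and III values turned on single libraries. Without KO 2, Col1a2 had a log2 fold change of -0.49 and passed the test (limma, adjusted p = 0.0205), the only member to do so, while 126 genes were then called higher and 85 lower over the whole table. Without WT 1 and KO 1, the Xist-carrying pair, the values were -0.03 for Col1a1, -0.14 for Col1a2 and -0.01 for Col3a1, and 11 of 11 fibrillar genes had negative values (median -0.25), against 9 of 11 (median -0.31) without KO 2.

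Col11a1, a type XI chain that sets the diameter of thin fibrils in cartilage, had 335, 302 and 384 normalised reads in the KO libraries, against 442, 383 and 467 in the WT libraries. The groups overlapped only at KO 3 and WT 2, and the log2 fold change was -0.34 ± 0.11 (limma, adjusted p = 0.218). Col5a3, a type V chain, had 104, 61.8 and 63.9 in the KO libraries, against 109, 107 and 97.6 in the WT libraries. KO 1 lay among the WT values for Col5a3 and the others below them, giving -0.48 ± 0.20 (limma, adjusted p = 0.305). 

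In type IV, Col4a1 had 3733, 3233 and 3310 normalised reads in the KO libraries, against 3992, 3623 and 4166 in the WT libraries. Col4a2 had 2429, 2062 and 2073 in the KO libraries, against 2575, 2293 and 2627 in the WT libraries. In both genes KO 1 lay above WT 2 and the other KO libraries below all WT libraries. The log2 fold changes were -0.20 ± 0.08 and -0.19 ± 0.08 (limma, adjusted p = 0.271 and 0.305). Col4a3 had the lowest value of the family, -0.82 ± 0.45 (limma, adjusted p = 0.446), from 6.84 to 13.2 normalised reads in the KO libraries and 8.87 to 26.4 in the WT libraries.

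Of the other types, Col6a5, a chain of type VI, had 52.7, 55.6 and 68.4 normalised reads in the KO libraries, against 93.7, 78.8 and 87.4 in the WT libraries. The groups did not overlap, and the log2 fold change was -0.55 ± 0.18 (limma, adjusted p = 0.215). Col6a1 had 570, 620 and 676 in the KO libraries, against 1046, 623 and 933 in the WT libraries, so WT 2 lay within the KO range. Its log2 fold change was -0.45 ± 0.15 (limma, adjusted p = 0.217), and without the Xist-carrying pair -0.23. Its partners did not share that size, with -0.04 ± 0.13 for Col6a2 and 0.11 ± 0.17 for Col6a3.

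Col13a1, a transmembrane collagen of adhesion sites, had 19.7, 16.8 and 17.1 normalised reads in the KO libraries, against 45.1, 23.6 and 28.5 in the WT libraries, and a log2 fold change of -0.78 ± 0.31 (limma, adjusted p = 0.279). Every KO library lay below every WT library for Col13a1, Col6a5, Col9a1 and Col14a1, which is 4 of 42 members, against 8.88% of all genes tested. For 0 members did every KO library lie above every WT library, against 10.1% of all genes. Col25a1, a transmembrane collagen that neurons make, had 438, 413 and 390 in the KO libraries, against 410, 401 and 364 in the WT libraries (0.08 ± 0.09; limma, adjusted p = 0.751). Col18a1 had 416 to 510 in the KO libraries and 418 to 538 in the WT libraries (-0.13 ± 0.11; limma, adjusted p = 0.658).

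**Figure D2:**
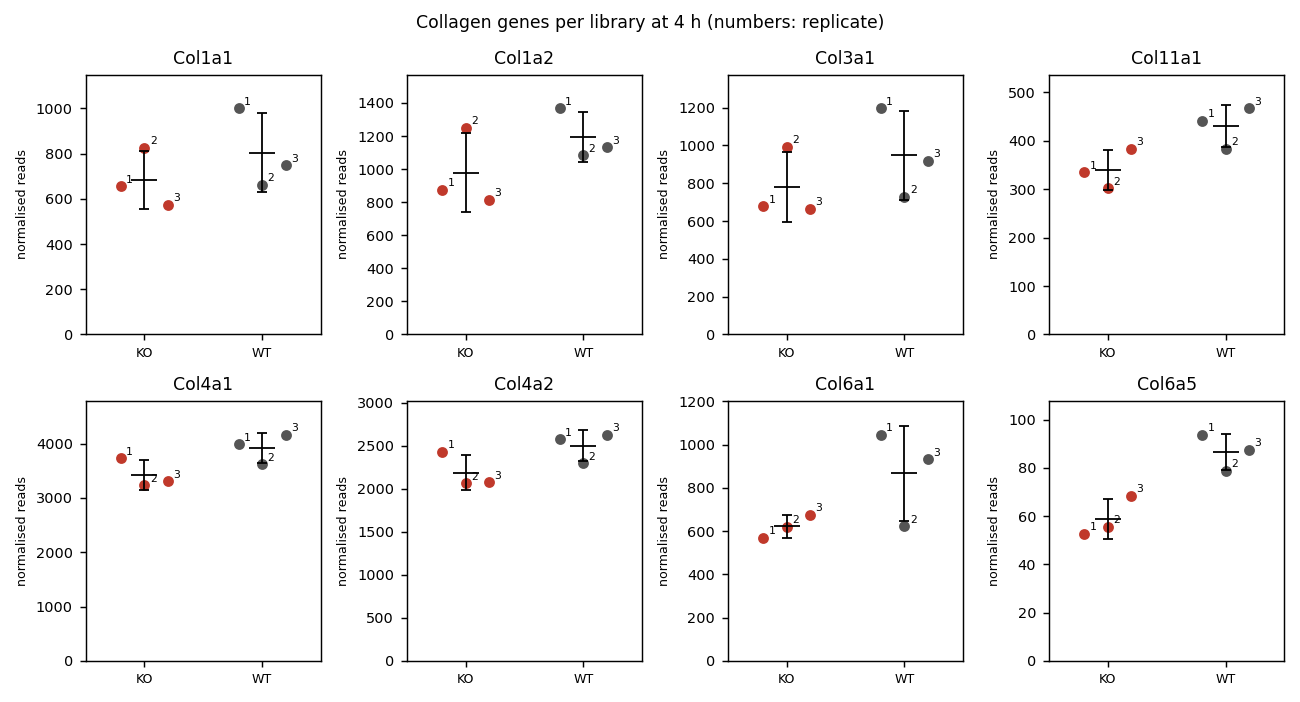
Normalised reads of 8 collagen genes in each 4 h library, KO-labelled left of WT, with the replicate number beside each point and bars for mean ± SD (n = 3 each). Only Col6a5 of the genes drawn has groups that do not overlap, at 52.7 to 68.4 in the KO libraries and 78.8 to 93.7 in the WT libraries.

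Vascular, meningeal and choroid plexus markers also had mostly negative fold changes at 4 h. The summed level of 14 endothelial markers was 5516 to 6013 normalised reads in the KO libraries and 6404 to 7551 in the WT libraries, and all 14 fold changes were negative (median log2 fold change -0.33). The sum of 12 mural cell markers was 3233 to 3540 in the KO libraries and 3908 to 4518 in the WT libraries (10 of 11 tested negative, median -0.29). The sum of 18 meningeal fibroblast markers was 4660 to 6351 in the KO libraries and 6019 to 6918 in the WT libraries (15 of 16 tested negative, median -0.37). Igf2 (2077 to 3596 normalised reads) and Pdgfra (1233 to 1578) made up most of the meningeal sum. The sum of 9 choroid plexus markers was 899 to 995 in the KO libraries and 1057 to 1083 in the WT libraries (4 of 5 tested negative, median -0.19). Most of that sum was Enpp2, at 744 to 788 in the KO libraries and 850 to 915 in the WT libraries. Ttr had only 0.884 to 3.94 and Folr1 1.76 to 8.84 normalised reads, so the choroid plexus sum mainly follows Enpp2. The sum of 10 neuronal markers was 93218 to 99462 in the KO libraries and 85565 to 89706 in the WT libraries (8 of 10 positive, median 0.10). No marker passed the test (limma). No marker in these sums averaged under 0.1 normalised reads, and Tagln of the mural list was near 0, with a median of 1.69. In slices, fewer cells of a type and less RNA per cell cannot be told apart, and the part of these cells in the collagen values was not tested. At 24 h, KO minus Het over both sexes, 9 of 14 endothelial markers were negative (median -0.07) and 5 of 10 mural markers (median 0.02). Positive were 13 of 18 meningeal fibroblast markers (median 0.03), 8 of 9 choroid plexus markers (median 0.96) and 7 of 10 neuronal markers (median 0.04).

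At 24 h, 0 of the 42 members tested (all except Col6a6 and Col28a1) were called with edgeR between KO and Het. DESeq2 called 0 members as well, and over both sexes 4 genes higher and 1 lower of 30265. Over all 16013 genes, edgeR called 0, or 0%, in each of 4 contrasts: over both sexes, in females, in males, and between the sexes' contrasts. Unadjusted p was under 0.05 for 5 members over both sexes, 6 in females, 2 in males and 4 between the sexes, and for 1060, 657, 1100 and 618 of all genes. Over both sexes the log2 fold change, KO minus Het, was positive for 31 of 42 members (median 0.09), for 9 of 11 fibrillar genes (median 0.14), 5 of 6 type IV genes (median 0.09) and 17 of 25 others (median 0.08). Over all genes 50% were negative. Without the 3 Ttr-rich libraries it was positive for 29 of 42 members, with a median of 0.13. With the same-numbered libraries as blocks it was positive for 23 of 42 members (median 0.05) and 6 of 11 fibrillar genes (median 0.05). The replicate numbers do not pair the libraries at 24 h, however.

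**Figure D3:**
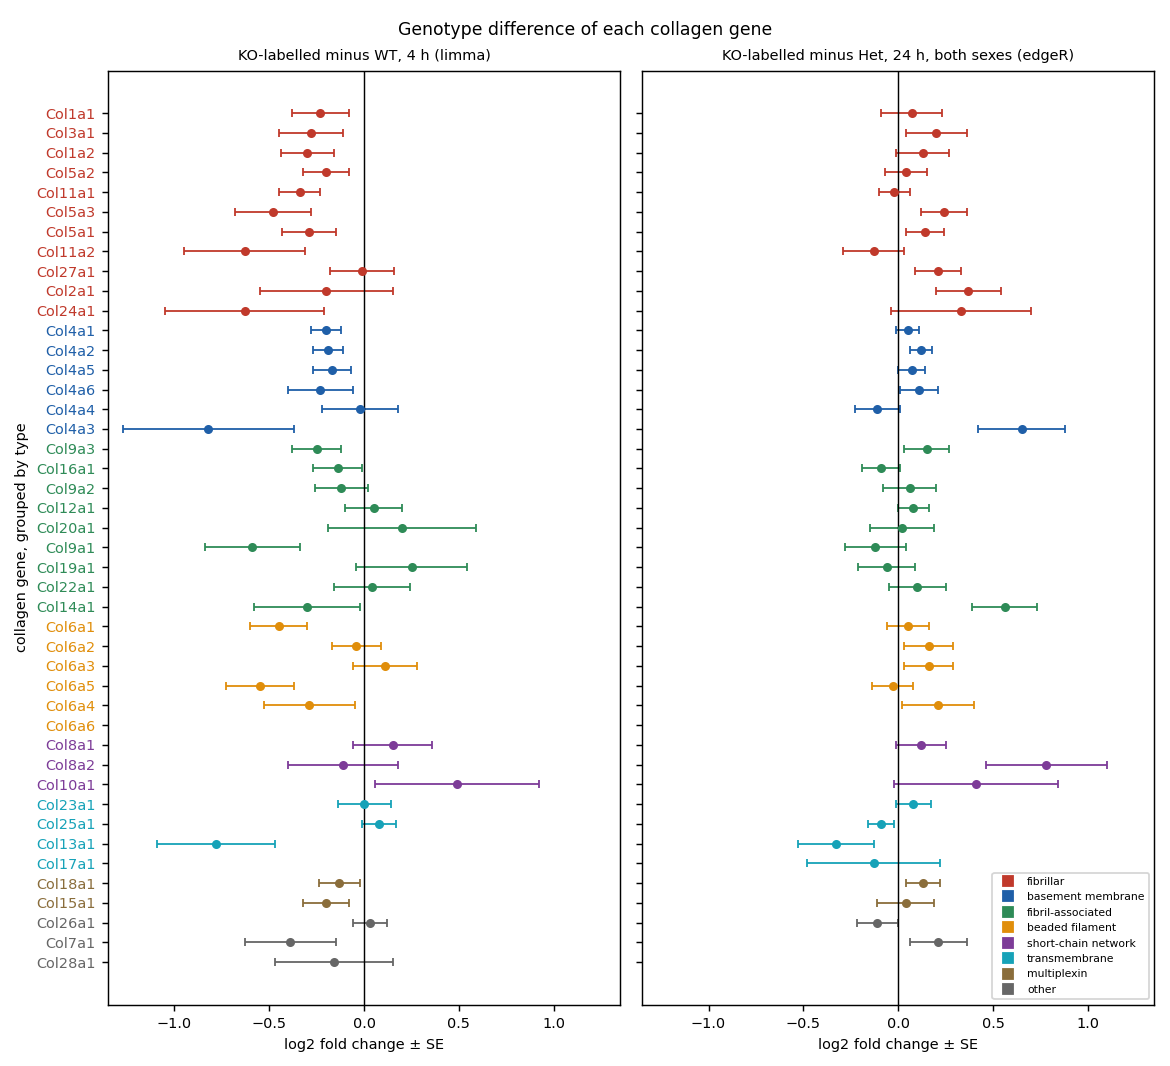
Log2 fold change ± SE of each collagen gene between KO-labelled and WT libraries at 4 h (left, limma, 42 genes) and between KO-labelled and Het libraries over both sexes at 24 h (right, edgeR, 42 genes), coloured by type. At 4 h all 11 fibrillar and all 6 type IV genes lie at or left of 0, and at 24 h 9 of the 11 and 5 of the 6 lie right of it; none passed the test.

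The type I and III genes varied more among the KO libraries than among the Het libraries at 24 h, and their ranges overlapped. Col1a1 ranged from 45.6 to 129 CPM in the KO libraries and from 81.2 to 97.8 CPM in the Het libraries, with medians of 95.4 and 94.5 CPM. Col3a1 ranged from 57.2 to 177 CPM in the KO libraries and from 113 to 129 CPM in the Het libraries, with medians of 147 and 121 CPM. In both genes KO female 3 was the lowest of the 14 libraries and KO male 4 the highest. The log2 fold changes were 0.07 ± 0.16 for Col1a1, 0.13 ± 0.14 for Col1a2 and 0.20 ± 0.16 for Col3a1 (edgeR, adjusted p = 0.966, 0.903 and 0.856). Without KO female 3 they were 0.19, 0.24 and 0.33.

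Col4a1 ranged from 303 to 413 CPM in the KO libraries and from 306 to 375 CPM in the Het libraries, and Col4a2 from 189 to 252 CPM in the KO libraries and from 191 to 207 CPM in the Het libraries. With Col4a5 they had the smallest spread of the members: the SD of log2 CPM over the 14 libraries was 0.115 for Col4a2 and 0.129 for Col4a1 and for Col4a5, against 0.393 for Col3a1, 0.348 for Col1a1 and 0.324 for Col1a2. The log2 fold changes were 0.05 ± 0.06 for Col4a1 and 0.12 ± 0.06 for Col4a2 (edgeR, adjusted p = 0.931 and 0.753). Col4a3 had 1.42 to 2.13 CPM in the KO libraries and 0.496 to 1.48 CPM in the Het libraries, overlapping narrowly, with a fold change of 0.65 ± 0.23 (edgeR, adjusted p = 0.738). At 4 h the same gene had its negative value of -0.82 ± 0.45.

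Outside type IV, Col14a1, Col8a2, Col2a1 and Col5a3 had the smallest unadjusted p over both sexes. Col14a1, which binds the surface of type I fibrils, had 4.27, 3.18, 2.86 and 2.78 CPM in KO females, against 3.10, 2.13 and 2.31 CPM in Het females, and 2.44, 2.73, 4.17 and 3.02 CPM in KO males, against 1.77, 1.71 and 2.14 CPM in Het males. In males the groups did not overlap, in females Het female 1 lay within the KO range. The fold change over both sexes was 0.56 ± 0.17 (edgeR, adjusted p = 0.738), and without the Ttr-rich libraries 0.40. Col2a1, the type II chain of cartilage, had 3.64 to 8.09 CPM in the KO libraries and 3.40 to 6.81 CPM in the Het libraries (0.37 ± 0.17; edgeR, adjusted p = 0.748). Col5a3 had 15 to 22.7 CPM in the KO libraries and 11 to 19.3 CPM in the Het libraries (0.24 ± 0.12; edgeR, adjusted p = 0.758).

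Col8a2, a short-chain network collagen known from the membrane under the corneal endothelium, had the largest fold change among the 42 members tested over both sexes. It had 5.99, 2.90, 12.2 and 3.57 CPM in KO females, against 1.96, 2.82 and 1.74 CPM in Het females. In males it had 2.00, 2.37, 4.45 and 2.39 CPM in the KO libraries, against 2.66, 1.82 and 4.08 CPM in the Het libraries. The 3 highest KO values belong to KO female 3, KO female 1 and KO male 3, which are the libraries with Ttr. The fold change was 0.78 ± 0.32 over both sexes (edgeR, adjusted p = 0.738) and 1.53 ± 0.45 in females (edgeR, adjusted p = 1). Without the 3 Ttr-rich libraries it was 0.14 over both sexes and 0.57 in females, and without KO female 3 alone 0.48 and 0.94.

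Col9a3 had 50.9, 39.1, 77.0 and 50.4 CPM in KO females, against 39.5, 37.9 and 36.9 CPM in Het females, and 36.0, 38.1, 43.5 and 40.2 CPM in KO males, against 40.9, 44.4 and 53.8 CPM in Het males. KO female 3 was the highest of all libraries. The fold change was 0.52 ± 0.16 in females (edgeR, adjusted p = 1) and -0.23 ± 0.16 in males (edgeR, adjusted p = 0.800), and the male minus female difference was -0.75 ± 0.23 (edgeR, adjusted p = 0.977). Without the Ttr-rich libraries the female value was 0.24 and the difference -0.51, and without KO female 3 alone they were 0.30 and -0.53. Summed over 10 choroid plexus markers, the level was 1770 and 3042 CPM in KO female 1 and KO female 3, 673 CPM in KO male 3 and 169 to 180 CPM in the other KO libraries, against 131 to 187 CPM in the Het libraries. The part of choroid plexus RNA in the Col8a2 and Col9a3 values was not tested beyond leaving out these libraries.

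In females the next smallest p were those of Col4a3 (0.83 ± 0.33) and Col27a1, a fibrillar gene of cartilage (0.42 ± 0.17), both with an adjusted p of 1 in edgeR. Without KO female 2, whose transcripts go against its label, the female values were 1.75 for Col8a2, 0.65 for Col9a3, 0.89 for Col4a3 and 0.43 for Col27a1. In males, Col14a1 (0.74 ± 0.26), Col4a4 (-0.40 ± 0.18), Col11a2 (-0.48 ± 0.23) and Col9a1 (-0.44 ± 0.23) had the smallest p (edgeR, adjusted p = 0.718 to 0.737). Between the sexes, the contrasts differed by -0.59 ± 0.25 for Col4a4, -1.51 ± 0.65 for Col8a2 and -0.69 ± 0.33 for Col11a2 (male minus female; edgeR, adjusted p = 0.977). The remaining genes followed at 24 h were close to 0 over both sexes: Col11a1 (-0.02 ± 0.08), Col18a1 (0.13 ± 0.09) and Col25a1 (-0.09 ± 0.07).

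**Figure D4:**
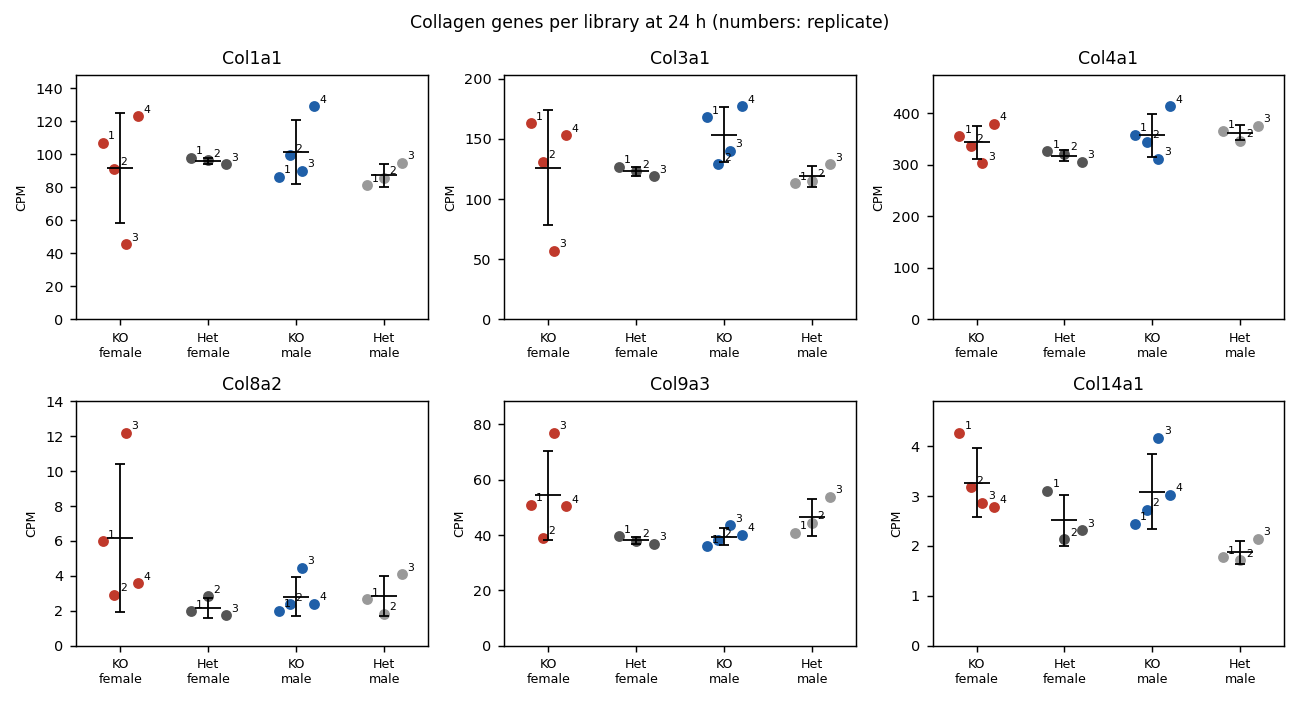
CPM of 6 collagen genes in each 24 h library, by genotype and sex, KO-labelled left of Het in each sex, with the replicate number beside each point and bars for mean ± SD (n = 4 KO and 3 Het per sex). KO female 3 is lowest for Col1a1 (45.6 CPM) and Col3a1 (57.2 CPM) and highest for Col8a2 (12.2 CPM) and Col9a3 (77.0 CPM).

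KO female 3 stood apart within the family at 24 h. Fibrillar genes took 16.1% of the family's summed RPKM in it, against 21.1% to 25.0% in the other 13 libraries, and fibril-associated genes took 21.3%, against 11.4% to 14.3%. Its type IV share, 39.6%, lay within the range of the others. It was the lowest library for 12 of the 40 members with a mean of at least 1 CPM, while Het female 3 was lowest for 10 and KO male 4 highest for 10. Its meningeal fibroblast marker sum, 494 CPM, was the lowest of all, against 565 to 910 CPM elsewhere.

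Across the 14 libraries at 24 h, collagen genes were set against summed markers in 10 relations. Col1a2 followed the meningeal fibroblast sum with Pearson r = 0.90 and Spearman rho = 0.86 (permutation test, n = 14, adjusted p = 0.0004 for each). Col1a1 had r = 0.84 and rho = 0.90 (permutation test, adjusted p = 0.0004 for each) and Col3a1 had r = 0.79 and rho = 0.67 (permutation test, adjusted p = 0.00325 and 0.0278). Without KO female 1 and KO female 3, the 2 libraries farthest from the median sum, r was 0.90 for Col1a2 and 0.81 for Col1a1, and 0.61 for Col3a1 (permutation test, adjusted p = 0.0685 for Col3a1), so the Col3a1 relation no longer passed the adjusted test without them. Within the KO libraries r was 0.92 for Col1a2, 0.92 for Col1a1 and 0.87 for Col3a1 (exact permutation test, n = 8, adjusted p = 0.00979, 0.00979 and 0.0191). Their rho there was 0.71, 0.86 and 0.67 (exact permutation test, adjusted p = 0.0768, 0.0214 and 0.095), so by rank only Col1a1 passed. Within the Het libraries r was 0.97, 0.84 and 0.77 (exact permutation test, n = 6, adjusted p = 0.0556, 0.25 and 0.25).

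Col4a1 followed the endothelial sum with r = 0.82 and rho = 0.82 (permutation test, n = 14, adjusted p = 0.00193 and 0.0012), and with r = 0.78 without Het male 3 and KO male 4. Col4a2 had r = 0.60 and rho = 0.64 with the same sum (permutation test, adjusted p = 0.0411 and 0.0323). Within the KO libraries r with the endothelial sum was 0.90 for Col4a1 and 0.85 for Col4a2 (exact permutation test, n = 8, adjusted p = 0.00476 and 0.00767), and within the Het libraries 0.76 and 0.52 (exact permutation test, n = 6, adjusted p = 0.257 and 0.486). With the mural sum r was 0.65 for Col4a1 and 0.73 for Col4a2 (permutation test, adjusted p = 0.0195 and 0.00492). These mural relations rest on KO female 4 and KO male 4, since r was 0.39 and 0.44 without them (permutation test, adjusted p = 0.302 and 0.26). Within the KO libraries, which include both, r with the mural sum was 0.86 and 0.91 (exact permutation test, n = 8, adjusted p = 0.00979 and 0.00476). Within the Het libraries r was -0.09 and 0.07. The marker lists hold no collagen gene, but gene and sum come from the same library and share its scaling. The sums are unweighted, so the most abundant markers of each list count most.

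The 3 remaining relations did not pass the test. Among the 11 libraries without Ttr, Col9a3 had r = -0.36 and rho = -0.44, and Col8a1 r = 0.12 and rho = 0.02, with the choroid plexus sum (permutation test, adjusted p = 0.369 and 0.227, and 0.686 and 0.962). The sum was only 131 to 187 CPM in these 11 libraries. The 2 relations therefore cannot show how these genes behave where choroid plexus RNA is present. Col25a1 had r = -0.28 and rho = -0.12 with the neuronal sum over 14 libraries (permutation test, adjusted p = 0.369 and 0.765).

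**Figure D5:**
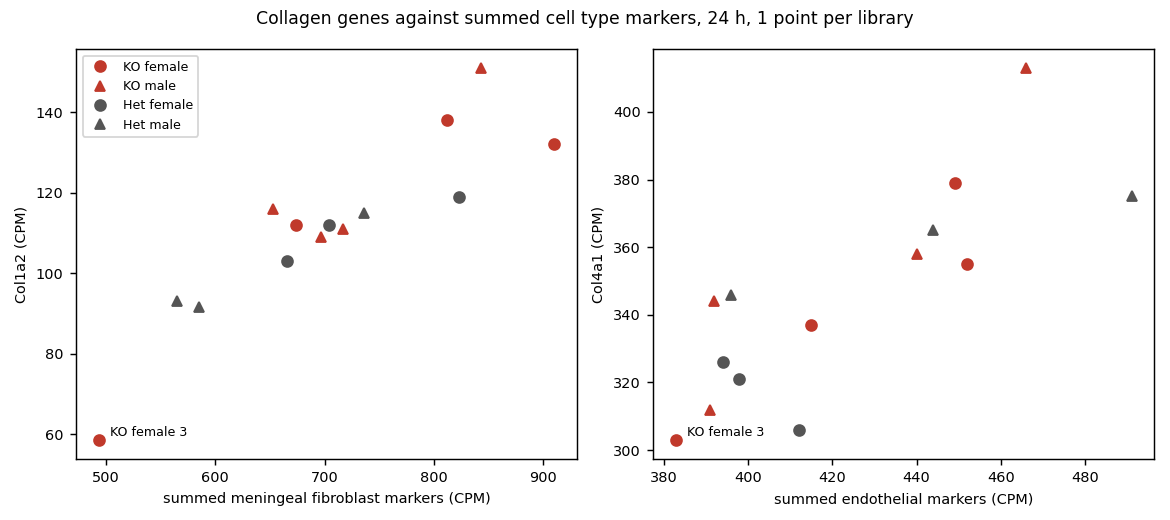
Col1a2 against the summed CPM of 18 meningeal fibroblast markers (left, r = 0.90) and Col4a1 against that of 14 endothelial markers (right, r = 0.82) in the 14 libraries at 24 h, 1 point per library, coloured by genotype and shaped by sex. KO female 3 is at the low end of both plots, with a meningeal sum of 494 CPM and an endothelial sum of 383 CPM.

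Chains that assemble together differed in how fixed their ratio was. The RPKM of Col4a1 over that of Col4a2 lay between 1.36 and 1.42 in all 6 libraries at 4 h and between 1.37 and 1.62 in the 14 at 24 h. It averaged 1.39 ± 0.0266 in KO libraries and 1.39 ± 0.0169 in WT libraries at 4 h (SD, n = 3 each), and 1.43 ± 0.0311 in KO libraries (n = 8) and 1.5 ± 0.0788 in Het libraries (n = 6) at 24 h. Col1a1 over Col1a2, the chains of type I collagen, lay between 1.16 and 1.42 at 4 h and between 1.47 and 1.74 at 24 h on merged exon lengths. On longest transcripts it lay between 0.552 and 0.676 and between 0.699 and 0.830, so its size depends on the length used. Col6a1 over Col6a2 was looser, from 2.89 to 5.58 at 4 h, and Col4a3 over Col4a4, both rare, looser still, from 0.125 to 0.486.

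Genes that modify, process or bind collagen gave no call either. At 4 h, 15 of 18 genes of collagen modification and folding had negative fold changes (median -0.14), among them Serpinh1, the collagen chaperone HSP47 (-0.29 ± 0.09; limma, adjusted p = 0.189), and Fkbp10 (-0.33 ± 0.11; limma, adjusted p = 0.205). Of 15 genes of procollagen processing and crosslinking, 11 were negative (median -0.06), with 0.26 ± 0.08 for Adamts3, an N-propeptidase, and -0.52 ± 0.22 for Loxl2, a lysyl oxidase (limma, adjusted p = 0.190 and 0.320). Of 11 collagen receptors tested, 9 were negative (median -0.23), with -0.23 ± 0.07 for the integrin subunit Itgb1 and -0.39 ± 0.16 for the endocytic receptor Mrc2 (limma, adjusted p = 0.172 and 0.288). At 24 h over both sexes, 12 of 18, 12 of 15 and 7 of 11 were positive, with medians of 0.02, 0.09 and 0.01, and none passed the test (edgeR). The smallest p in each list were those of Ppib (-0.12 ± 0.05) and P3h1 (0.18 ± 0.08), of Adamts14 (0.44 ± 0.20) and the C-proteinase Bmp1 (0.14 ± 0.07), and of the receptors Adgrg1 (-0.07 ± 0.08) and Ddr1 (0.06 ± 0.08).

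The strand setting of the counting is not given in the sources used here, so reads of Col9a3 and Tcfl5, of Col18a1 and Slc19a1, of Col10a1 and Nt5dc1, and of Col4a1 and Col4a2 at their starts, which overlap on opposite strands, cannot be told apart there.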

How the data were processed

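RNA from forebrain slices was sequenced with SMART-Seq V4 libraries, per the labels' protocols. TopHat2, HTSeq and DESeq2 1.38.3 are listed, with the build GRCm38 (mm10) but with no role or order, per the submitters' processing notes. The 24 h table holds the authors' raw counts per gene. The deposited 4 h values are a signal: read counts divided by 1 size factor per library. Multiplying back gave whole reads for 100% of the values (tolerance 0.05 reads), and edgeR on those reads was an added alternative.

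For this report, 4 h values were tested with limma 3.58.1 (R 4.3.3) on log2(value + 1) for genes with a mean of at least 10. A fold change on that scale understates the change of low genes. The 24 h counts were tested with edgeR 4.0.16 (quasi-likelihood, TMM, low counts filtered, 1 mean per genotype and sex), and DESeq2 1.42.0 was an alternative at both times. P-values were adjusted by Benjamini-Hochberg over all genes tested. RPKM was computed from the reads and merged exon lengths. Identifiers without a gene symbol held 0.0462% of reads at 4 h and 0.0396% at 24 h. At 4 h, same-numbered KO and WT libraries deviated together (correlations 0.264, 0.14 and 0.175, taken from the data). A fit with the numbers as pairs is therefore also reported for 4 h. The main 4 h test was unpaired, and the SE and adjusted p given for single genes come from it. With pairs the adjusted p was 0.135 for Col11a1, 0.162 for Col6a1 and 0.186 for Col4a1 (limma), in place of 0.218, 0.217 and 0.271.

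Members and lists were chosen with earlier results of these data known. Named genes were 8 fixed members, any member called, the 6 with the smallest p at 4 h and over both sexes at 24 h, and the 4 with the smallest p in the other contrasts, with levels for the most abundant members and the 2 smallest p of each pathway list. Named outside that rule after their values were seen were Col4a3, Col6a2, Col6a3, Col9a1 and Col14a1 at 4 h, Col9a3 in males, and the rarest members. Permutation tests used 100000 resamples, or full enumeration below 10 libraries.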

Additional observations from a re-analysis of the deposited data

Results flagged for a closer look

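Of 58 groups of 4 libraries checked, 3 held a library whose gap to its nearest neighbour exceeded Dixon's critical value of 0.829 as a share of the group's range; chance gives about 1 in 20 groups. Col2a1 had 8.09 CPM in KO male 1, while the other KO males lay between 5.56 and 5.70 CPM. Col6a1 had 108 CPM in KO male 4, while the other KO males lay between 82.5 and 84.7 CPM. The fibrillar share of the family's summed RPKM was 16.1% in KO female 3, while the other KO females lay between 23.5% and 24.6%.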

How the results depend on the processing

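Of 61 results for single genes, 51 reversed under no setting tried and 10 under some. Without a filter on low counts, edgeR called 2 members over both sexes (Col3a1 and Col8a2) and 2 in females (Col8a2 and Col9a3). It called 1 in males (Col3a1) and 2 between the sexes (Col8a2 and Col9a3). Over all 30270 genes then tested it called 202 higher and 61 lower over both sexes, and 116 and 64 in females. In males it called 168 and 52, and between the sexes 92 and 73. The cause was not tested. With longest transcripts the fibrillar, type IV and other shares were 23.8%, 33.8% and 42.4% at 4 h, and the first 2 were 27.8% and 32.9% at 24 h. With the replicate block at 4 h, 11 genes were called higher and 27 lower, 0 of them members. With the replicate block at 24 h, where the numbers do not pair the libraries (correlations -0.117 to 0.0867), the log2 fold change over both sexes was -0.12 for Col1a1, -0.03 for Col1a2 and -0.02 for Col4a1, that of Col3a1 in females was -0.19 and that of Col18a1 in males -0.03. Without the 3 Ttr-rich libraries, left out after seeing the data, Col11a1 was at 0.03 over both sexes, Col1a1 and Col1a2 at 0.17 in females, and Col4a1 at 0.04 in males.

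Leaving out 1 library at a time gave 0 to 1 members called at 4 h, the call arising without KO 2. At 24 h it gave ranges of -0.07 to 0.03 for Col11a1 and -0.02 to 0.19 for Col1a1 over both sexes. In females the ranges were -0.25 to 0.16 for Col1a1, -0.15 to 0.19 for Col1a2 and -0.12 to 0.28 for Col3a1. In males they were -0.05 to 0.17 for Col18a1 and -0.10 to 0.04 for Col4a1, and between the sexes -0.10 to 0.03 for Col4a2. Within the Het libraries r was 0.84 for Col1a1, 0.97 for Col1a2 and 0.77 for Col3a1 with the meningeal sum, 0.76 for Col4a1 and 0.52 for Col4a2 with the endothelial sum, -0.09 and 0.07 for these with the mural sum, and 0.41 for Col25a1 with the neuronal sum. Without the 2 libraries farthest from the median sum it was 0.61 for Col3a1, 0.39 for Col4a1 and 0.44 for Col4a2 with the mural sum, and -0.20 for Col8a1.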

Other observations

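These values were picked out after they were seen. At 4 h, KO 2 was the lowest library for Col11a2 (91.7 normalised reads), Col24a1 (12.4) and Col2a1 (18.5), while the other KO libraries had 219 to 316, 41.1 to 46.1 and 38.8 to 48.3, and the WT libraries 232 to 349, 28.6 to 58.9 and 25.4 to 48.3. At 24 h, Het male 3 had Col11a2 at 28.5 CPM, while no other library exceeded 18.9 CPM.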
